A study of Mus musculus with 17 samples.

Results

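Chromatin accessibility was described at the loci of 7 mouse genes of the MHC class II pathway: H2-Aa, H2-Ab1, H2-Eb1, H2-DMa, H2-DMb1, Cd74 and Ciita. Every ATAC-seq peak summit within 20 kb of one of these gene bodies, in mm10 with GENCODE annotation, was included. Summits of different peak lists that lay within 500 bp of a common centre were treated as 1 element. The windows held 123 of the 130327 elements of the genome, and 45 of these entered the tests, of 38455 tested in all. ATAC-seq marks open chromatin by the insertion of a transposase, so an element is a stretch of DNA that was accessible in at least 1 list.

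The series compared macrophages of wild-type (WT) mice with those of mice lacking Nur77 (KO), a nuclear receptor encoded by Nr4a1. Bone marrow of male C57Bl6/J mice, 6 to 12 weeks old, was cultured for 7 days in medium conditioned by L929 cells, which supplies the macrophage growth factor, to give bone marrow-derived macrophages (BMDMs). Cells of each genotype received 100 ng/ml of bacterial lipopolysaccharide (LPS), a ligand of Toll-like receptor 4, for 1 h or 18 h, or none (0 h). The 6 groups held 3 peak lists each, except WT at 1 h with 2, 1 of which is labelled as replicates 1 and 2. The knockout is whole-body: it came from loxP-flanked Nur77 mice crossed to CMV-Cre mice, with the Cre transgene bred out afterwards, although the labels give the KO genotype as "cre". WT mice were littermates. The labels do not tie lists to animals, so p-values measure the spread between these lists, which may be technical.

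MHC class II molecules present peptides from engulfed material to CD4+ T cells. The classical molecules are pairs of an alpha and a beta chain. Newly made pairs are held by the invariant chain, encoded by Cd74, and exchange a remnant of it for a peptide with the help of the chaperone H2-DM. Transcription of these genes depends on the co-activator CIITA, which does not bind DNA itself but docks on a complex of RFX, CREB and NF-Y proteins assembled on the X1, X2 and Y boxes of each class II promoter. Macrophages express class II at a low level until interferon-gamma induces Ciita, whereas dendritic cells and B cells express it constitutively.

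The lists differed in depth, and so did the number of peaks they held, from 26558 to 92594. Each list was therefore used only to rank its own peaks by the peak caller's p-value. The rank score of an element in a list is the log2 of 26558 (the length of the shortest list) over its rank. The score is 0 where the element had no peak or ranked below 26558, and the best peak of a list scores 14.7. An element within the best 26558 peaks is called kept. The fold enrichments in the lists gave back the number of reads over each summit. All of them (100%) were whole multiples of 1 read within a tolerance of 0.05, which widened at high read numbers. The background read density was fitted to these same values, so this was not a separate check of them. That density, a measure of depth, ran from 0.382 to 9.75 reads per kb, being 0.72 to 9.75 at 0 h, 0.382 to 4.14 at 1 h and 1.1 to 8.38 at 18 h. By genotype it was 5.11 to 9.75 in WT and 0.72 to 7.65 in KO at 0 h. At 1 h it was 0.382 to 1.61 and 0.593 to 4.14, and at 18 h 4.62 to 8.38 and 1.1 to 1.76. The genotypes thus did not overlap in depth at 18 h. The shallowest list was the WT 1 h list labelled 1-2, and KO 18 h replicate 1 had narrow peaks, with a median width of 148 bp against 365 to 901 bp in the other lists. The lists cannot check the deletion of Nr4a1, since no element lay in the gene from 1 kb after its main start to its end. Nr4a1 -4139, upstream of that start, scored 2.15 to 2.71 in WT and 0.25 to 0.99 in KO at 0 h, 2.26 to 2.72 and 1.13 to 1.86 at 1 h, and 0.90 to 1.17 and 0 to 0.89 at 18 h, without overlap between genotypes (difference -1.23, adjusted p = 0.216, exact permutation test). At the promoter, Nr4a1 -91 scored 0.71 to 1.28 in WT and 0.25 to 0.78 in KO at 0 h, 1.74 to 2.12 and 1.18 to 1.63 at 1 h, and 0 in all lists at 18 h (difference -0.30, adjusted p = 0.63, exact permutation test).

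The sequences below are those of the elements and promoters on which the results turn. All are in mm10 (GRCm38) from RefSeq, 5′ to 3′, on the plus strand unless stated. The first 3 are the intronic elements of Ciita that ranked higher at 1 h, each named by its distance in bp from the nearest annotated start of the gene. In Ciita +8549 the capitals mark a match to the NF-kB motif. Ciita -1353 lies at chr16:10486826-10487026, Ciita +6473 at chr16:10496156-10496356 and Ciita +8549 at chr16:10498232-10498432.
Ciita -1353: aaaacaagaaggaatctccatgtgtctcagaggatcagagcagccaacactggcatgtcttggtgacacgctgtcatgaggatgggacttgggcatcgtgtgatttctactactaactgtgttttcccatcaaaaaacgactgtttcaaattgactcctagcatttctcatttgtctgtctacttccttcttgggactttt
Ciita +6473: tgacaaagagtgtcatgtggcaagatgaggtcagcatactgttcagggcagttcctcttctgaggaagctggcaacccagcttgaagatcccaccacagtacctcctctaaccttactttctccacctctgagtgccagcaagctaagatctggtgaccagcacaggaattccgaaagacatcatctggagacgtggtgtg
Ciita +8549: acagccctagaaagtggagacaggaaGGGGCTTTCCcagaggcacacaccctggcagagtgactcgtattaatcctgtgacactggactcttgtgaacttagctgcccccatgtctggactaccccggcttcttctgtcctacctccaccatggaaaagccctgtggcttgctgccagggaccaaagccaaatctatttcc
The next 2 lie upstream of the protein-coding starts of H2-Ab1, H2-Ab1 -1538 at chr17:34261571-34261771 and H2-Ab1 -5453 at chr17:34257656-34257856. They are shown because both hold the class II motif pair, an X1 core (GNNACNG) and a Y box (ATTGG) whose first bases lie 28 to 38 bases apart. Capitals in H2-Ab1 -1538 mark in turn the Y box and the X1 core, both read on the minus strand, and an NF-kB match. In H2-Ab1 -5453 they mark the X1 core and the Y box.
H2-Ab1 -1538: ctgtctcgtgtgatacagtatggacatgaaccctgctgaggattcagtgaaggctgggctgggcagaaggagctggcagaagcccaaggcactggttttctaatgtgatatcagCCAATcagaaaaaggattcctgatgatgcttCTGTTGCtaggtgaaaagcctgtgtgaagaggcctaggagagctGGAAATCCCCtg
H2-Ab1 -5453: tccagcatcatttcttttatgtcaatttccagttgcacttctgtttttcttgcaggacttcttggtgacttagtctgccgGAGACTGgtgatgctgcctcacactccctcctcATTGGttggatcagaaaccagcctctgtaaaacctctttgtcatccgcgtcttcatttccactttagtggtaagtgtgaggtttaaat
The last 2 are the 190 bases before the starts of a beta and an alpha chain gene, chr17:34305677-34305866 for H2-Eb1 and, on the minus strand, chr17:34287824-34288013 for H2-Aa. In H2-Eb1 the capitals mark the X1 core at -91 and the Y box at -59 from the start. In H2-Aa they mark a CRE (TGACGTCA) at -74 and a Y box at -48, and no X1 core was matched.
H2-Eb1 promoter: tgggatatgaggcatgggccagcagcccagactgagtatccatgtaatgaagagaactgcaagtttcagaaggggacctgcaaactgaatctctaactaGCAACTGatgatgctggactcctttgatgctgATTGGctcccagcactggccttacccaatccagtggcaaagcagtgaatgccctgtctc
H2-Aa promoter: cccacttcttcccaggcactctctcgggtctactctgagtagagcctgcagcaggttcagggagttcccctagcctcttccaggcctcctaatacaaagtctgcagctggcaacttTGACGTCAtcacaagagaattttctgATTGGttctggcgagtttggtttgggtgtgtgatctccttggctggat
Promoter sequences of H2-Ab1, Cd74 and Ciita are not shown here.

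Of the 123 elements, 92 were distal, that is more than 1 kb from any protein-coding start. There were 14 at starts of the 7 genes, 16 at starts of other genes and 1 at a start shared by H2-DMa and Brd2. Only 11 elements were present in all 17 lists, and 20 were present in 1 list alone. The H2-DMa window was the most crowded with 45 elements, 18 of them tested, and it includes Brd2, which encodes a chromatin reader of acetylated histones and is active in most cells. Ciita had 24 elements (7 tested), Cd74 20 (5), H2-Eb1 11 (4), H2-Ab1 9 (5), H2-DMb1 9 (4) and H2-Aa 5 (2). The number of kept elements in all the windows together was 21 to 27 in the 0 h lists, 28 to 32 in the 1 h lists and 20 to 25 in the 18 h lists. Each 1 h list thus exceeded each list of the other times. The number of kept elements of the whole genome in each list was not counted. Whether this excess is particular to the windows was therefore not tested.

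At the promoters, the classical class II genes, Cd74 and Ciita ranked low in these macrophages. Among all tested promoter elements of the genome (n = 13416) the median of the elements' median scores was 1.11, and 43.5% were kept in all 17 lists. Among the members only 2 elements of H2-DMa, part of the H2-DM chaperone, exceeded that median.

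**Figure D1:**
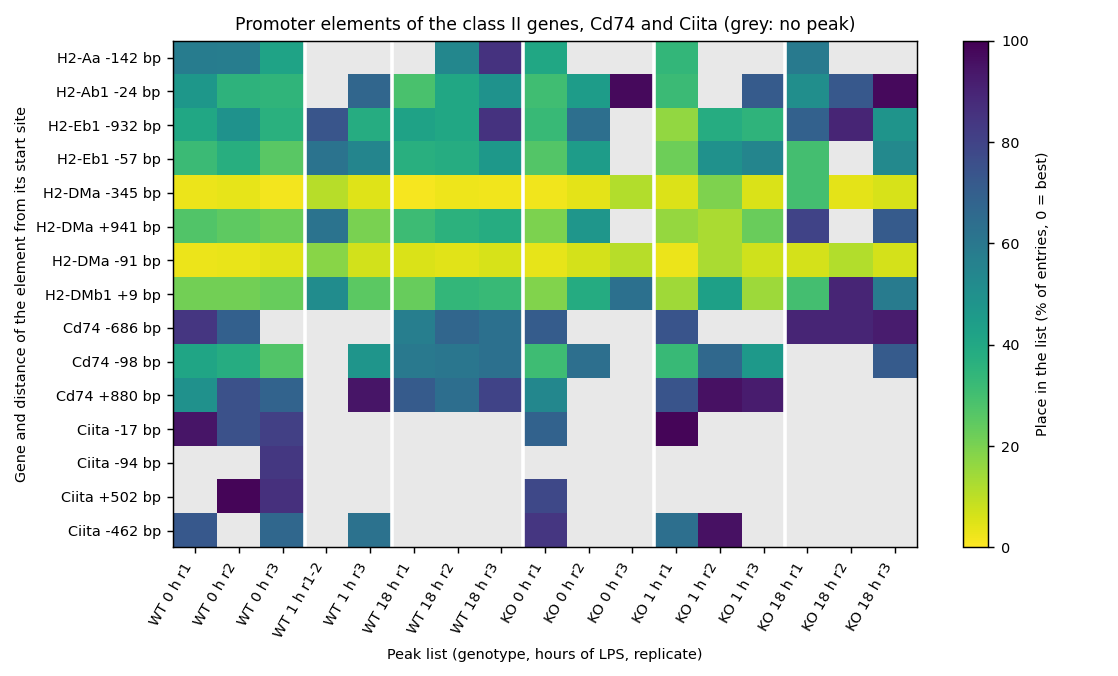
Place of each promoter element (vertical axis, gene and distance in bp from its start) in each of the 17 peak lists (horizontal axis), as a percentage of the entries of that list, where 0 is the best peak and grey means no peak. The H2-DMa elements at -345 and -91 bp lie near the top of the lists, H2-DMb1 lies in the middle, and the Ciita and H2-Aa promoters are grey in 11 to 16 and in 9 of the 17 lists.

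H2-Aa encodes the alpha chain of I-A, the class II molecule of C57Bl6/J mice. Its promoter element (-142 bp, centre at chr17 34287965) had a peak in 8 of 17 lists and was kept in 1, KO 18 h replicate 1, with a score of 0.16. The reads over its summit were 24, 21 and 47 in the WT 0 h lists, 42 in KO 0 h replicate 1, 32 in KO 1 h replicate 1, 21 and 10 in WT 18 h replicates 2 and 3, and 8 in KO 18 h replicate 1. Neither WT 1 h list had a peak there. At the median read density of the lists with a peak, 3 of the 9 lists without one would have had fewer reads than the lowest number called in that list, so absence in those lists was not detectable at this depth.

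H2-Ab1, the beta chain partner of H2-Aa, had a promoter element at -24 bp of its coding start (chr17 34263185) in 15 of 17 lists, kept in 4. Its scores were 0.14 in WT 18 h replicate 1, 0.41 in KO 0 h replicate 2, and 0.38 and 0.09 in KO 18 h replicates 1 and 2, with 0 elsewhere. No group had all its lists above 0. The element passed the test in no comparison, and its X1 core and Y box lay 35 and 3 bases before its centre.

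H2-Eb1 encodes the beta chain of I-E, a second class II molecule whose alpha chain gene is defective in this strain. Its promoter had 2 elements. The one at -57 bp (chr17 34305810), whose X1 core lay 34 bases and whose Y box 2 bases before the centre, was present in 15 lists and kept in 10. Its scores were 0.05, 0 and 0.17 in WT at 0 h, 0.69 and 0 at 1 h, and 0, 0.05 and 0 at 18 h. In KO they were 0.12, 0.41 and 0 at 0 h, 0.41, 0.40 and 0 at 1 h, and 1.14, 0 and 0.39 at 18 h. These values overlapped between all groups.

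The other element of H2-Eb1, at -932 bp (chr17 34304935), was kept in all 5 of the 1 h lists and in only 1 other list. It scored 0.44 and 0.50 in WT and 0.84, 0.78 and 0.54 in KO at 1 h, 0 in the 6 lists at 0 h and in the 3 WT lists at 18 h, and 0, 0 and 0.52 in KO at 18 h.

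H2-DMa and H2-DMb1 encode the alpha and beta chains of H2-DM. The element at the main H2-DMa start (-91 bp, chr17 34135537) was kept in all 17 lists. It scored 3.44, 3.33 and 2.62 in WT at 0 h, 2.48 and 3.00 at 1 h, and 2.46, 3.16 and 2.91 at 18 h. In KO the scores were 2.94, 3.16 and 2.95 at 0 h, 3.36, 2.38 and 2.84 at 1 h, and 3.33, 2.74 and 3.40 at 18 h. The groups overlapped throughout, between 2.38 and 3.44. The element at the upstream H2-DMa start, -345 bp, ranked higher still (median 3.43, from 1.14 to 4.63), but it lies in an exon of Brd2 and within 1 kb of a Brd2 start, so accessibility there cannot be assigned to H2-DMa.

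H2-DMb1 +9 (chr17 34153081) was present in 17 lists and kept in 16. Its scores in WT were 0.62, 0.65 and 0.31 at 0 h, 0.97 and 1.09 at 1 h, and 0.45, 0.22 and 0.47 at 18 h. In KO they were 0.62, 0.63 and 0.40 at 0 h, 1.04, 0.60 and 1.80 at 1 h, and 1.14, 0 and 0.26 at 18 h. The 1 h lists were the highest in WT but overlapped the others in KO, and the difference of 0.55 between 1 h and 0 h did not pass the adjusted test (p = 0.015, adjusted p = 0.0633, exact permutation test).

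Cd74 had 3 promoter elements. The one at -98 bp (chr18 60803750) was present in 13 lists and kept in 3, with scores of 0.08 in WT 0 h replicate 3, 0.17 in WT 1 h replicate 3 and 0.13 in KO 1 h replicate 3. The elements at -686 and +880 bp were present in 10 and 11 lists and kept in none. Its better elements were intergenic or intronic: Cd74 -16640 (chr18 60787208) was kept in 13 lists with a median score of 0.56, and the intronic Cd74 +2061 (chr18 60805917) in 14 with a median of 0.26.

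Ciita, whose gene spans chr16 10480059 to 10528418 on the plus strand, has annotated protein-coding starts in 3 clusters, at 10480059, 10488279 and 10489746. These alternative starts are known to be used in different cell types. Its 4 promoter elements were kept in no list. The element at the first start (-17 bp) had a peak in 5 lists, at ranks of 76158, 59736 and 75018 in WT at 0 h, 62513 in KO 0 h replicate 1 and 88952 in KO 1 h replicate 1. The element at -462 bp of the third cluster had a peak in 6 lists, with a best rank of 30755 in WT 1 h replicate 3. The elements at -94 and +502 bp of the second start had peaks in 1 and 3 lists. No 18 h list of either genotype had a peak at any of the 4. At the median read density of the lists with a peak, 9 of the 12 lists without one at -17 bp would have had fewer reads than the lowest number called in that list, as would 11 of 16 at -94, 11 of 14 at +502 and 3 of 11 at -462. At -462 bp most lists without a peak were thus deep enough to show one of that density.

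In order of median score the promoter elements were H2-DMa -345 (3.43), H2-DMa -91 (2.95), H2-DMb1 +9 (0.62), H2-DMa +941 (0.33) and H2-Eb1 -57 (0.05), and the other 10 had a median of 0. The 2 leading elements overlapped in range, as did all neighbours from H2-DMb1 +9 downwards. The gap between H2-DMa -91, at 2.38 or above in every list, and H2-DMb1 +9, at 1.80 or below, was the only one that the spread over lists did not bridge. In bulk samples, a lower share of cells with open chromatin and a lower accessibility in each cell cannot be told apart.

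The first comparison asked which elements changed after 1 h of LPS. Intronic elements of Ciita, 1 intronic element of H2-Ab1 and the -932 bp element of H2-Eb1 ranked higher, while H2-Ab1 -24, H2-DMb1 +9, H2-Eb1 -57, Cd74 -98 and the main H2-DMa promoter did not pass the test in either direction. The promoter elements of H2-Aa and Ciita and the other 2 of Cd74 were kept in too few lists to be tested. Differences were tested per element by a two-sided exact permutation test with genotype as stratum, adjusted by Benjamini-Hochberg over all 38455 elements. The smallest p that this design allows is 0.005, which gave an adjusted p of 0.0286. Of the 45 member elements, 8 rose (17.8%, against 9.52% of all tested elements) and 2 fell (4.44%, against 11.9%). Of the 8, Ciita +6473 and H2-Eb1 -932 entered the test only through the 1 h lists, since they were kept in fewer than 2 of the others, as were 19% of all elements called higher, so their values are a description. The lists at 1 h and 0 h did not overlap in either genotype, in the same direction, at 7 of the 45 (15.6%, against 19.5% of all). The median difference was 0.01 over the members and -0.02 over all elements.

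**Figure D2:**
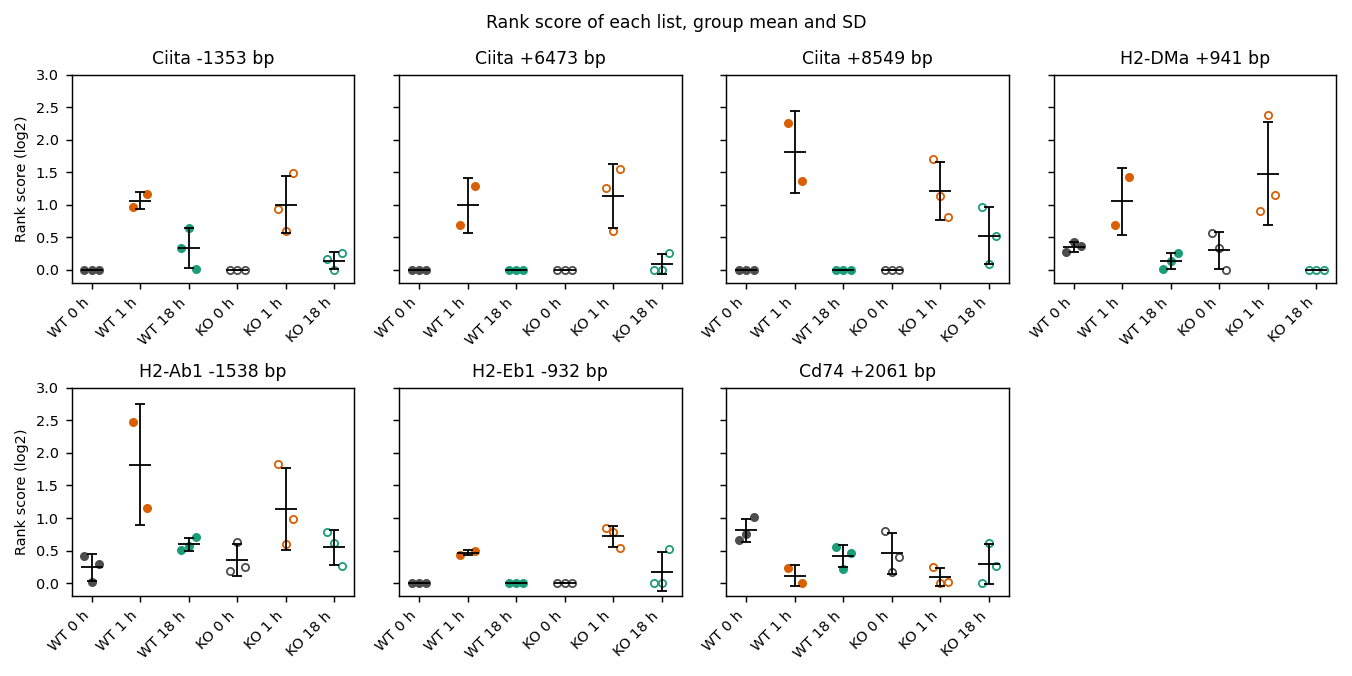
Rank score (vertical axis, log2) of the 7 distal or member promoter elements that passed the test at 1 h, in every peak list by group (horizontal axis), with WT lists as filled and KO lists as open circles and the group mean and SD in black. The 3 Ciita elements and H2-Eb1 -932 are at 0 in all 0 h lists and above 0 in all 5 lists at 1 h, whereas Cd74 +2061 is lower at 1 h. Ciita +6473 and H2-Eb1 -932 entered the test only through the 1 h lists.

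The largest rise was at Ciita +8549, in an intron after the third start cluster (centre chr16 10498332). At 0 h it had a peak in 4 lists, with 14, 19 and 29 reads in WT and 24 in KO replicate 1, at ranks between 49111 and 65418. At 1 h it ranked 5588.5 and 10360.5 in WT and 8177, 12142.5 and 15121 in KO, which gave scores of 2.25 and 1.36, and of 1.70, 1.13 and 0.81. All 5 lists at 1 h therefore stood above all 6 at 0 h, where the score was 0. The difference was 1.51 (1.80 in WT, 1.21 in KO; adjusted p = 0.0286, exact permutation test).

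Reads over the Ciita elements were also set beside depth. KO 1 h replicate 1, at 4.14 reads per kb, was shallower than the 4 deepest 0 h lists (5.11 to 9.75). It had 95 reads over Ciita +8549 where those had 14, 19, 29 and 24. It had 78 reads over Ciita +6473 against 32, 15, 44 and 32, and 66 over Ciita -1353 against 27, 18, 45 and 36. Its rank placed Ciita +8549 among the upper 9.07% of the peaks of that list. KO 1 h replicate 1 held 90176 peaks, against 79368 to 92594 in those 4 lists. The other 1 h lists, at 0.382 to 1.61 reads per kb, were not set beside them, nor was an unchanged element. The part of depth in the comparison of all lists was not tested in these reads.

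Ciita +6473, also intronic (chr16 10496256), scored 0 in all 6 lists at 0 h. At 1 h it scored 0.69 and 1.29 in WT and 1.26, 0.60 and 1.55 in KO. The difference was 1.06 (0.99 in WT, 1.14 in KO), and the groups did not overlap in either genotype.

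Ciita -1353, in the intron between the first and the second start (chr16 10486926), had a peak in 5 of the 6 lists at 0 h but was kept in none of them. At 1 h it scored 0.97 and 1.16 in WT and 0.93, 0.60 and 1.48 in KO, again without overlap. The difference was 1.03 (1.06 in WT, 1.00 in KO; adjusted p = 0.0286, exact permutation test). The 3 elements lie on both sides of the second and the third start, and the 4 promoter elements were kept in no list at any time. With log2 depth as a covariate in limma the differences were 1.54 at +8549 (adjusted p = 0.00107) and 1.13 at -1353 (adjusted p = 0.00121). With ranks as a share of the whole list they were 1.88 (adjusted p = 0.222) and 1.09 (adjusted p = 0.256) by the exact permutation test, and with no filter on low values both had an adjusted p of 0.0778. Neither setting called any element of the genome. With each list left out in turn the differences were 1.29 to 1.73 at +8549 and 0.91 to 1.13 at -1353. Most of these runs called no element of the genome by the exact permutation test, these included. When only the 10000 best peaks of each list were used, +8549 differed by 0.26 (adjusted p = 0.37, exact permutation test) and the other two were not tested.

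**Figure D3:**
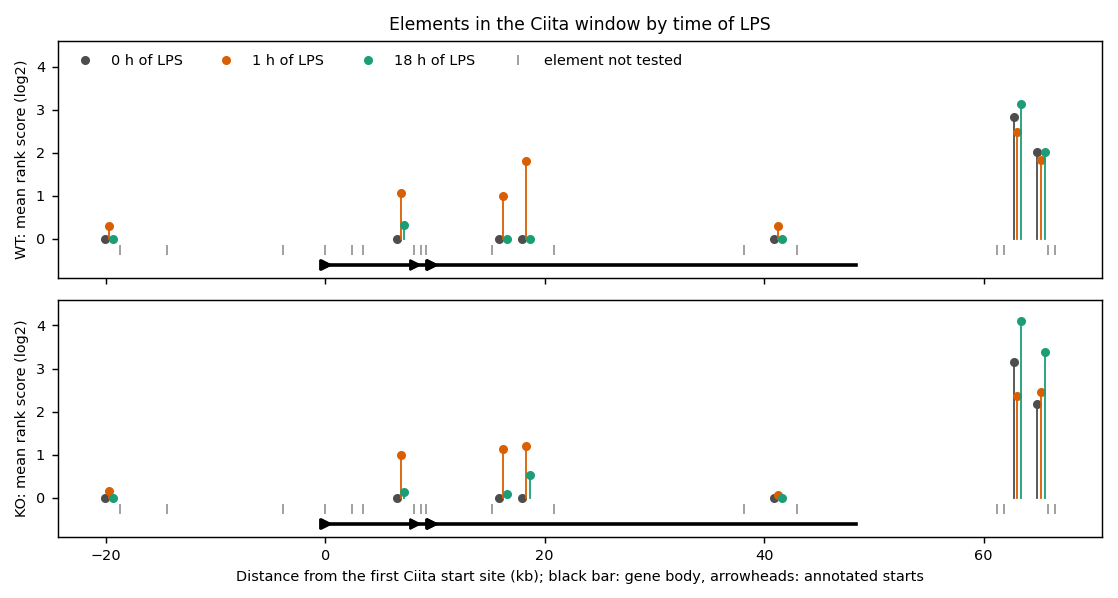
Mean rank score (vertical axis, log2) of the tested elements in the Ciita window by distance from the first start in kb (horizontal axis), for WT above and KO below, at 0 h, 1 h and 18 h of LPS. In both genotypes 3 intronic elements stand out at 1 h only or mostly, and the tall elements to the right of the gene are the Dexi and Clec16a promoters.

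H2-Ab1 -1538 (chr17 34261671), in the annotated gene body but upstream of the coding start, was kept in all 17 lists. It scored 0.42, 0.01 and 0.30 in WT and 0.18, 0.63 and 0.25 in KO at 0 h. At 1 h the scores were 2.48 and 1.16 in WT and 1.83, 0.60 and 0.99 in KO. The difference was 1.18 (1.58 in WT, 0.78 in KO; adjusted p = 0.0466, exact permutation test), although KO 1 h replicate 2 at 0.60 fell within the range of KO at 0 h. Without the shallowest list the difference in WT was 0.91. Over the other settings the difference in both genotypes together ran from 0.34 to 1.19, and in some of them it did not pass. With each list left out in turn it ran from 0.85 to 1.51. This element carries the inverted motif pair and the NF-kB match printed above. H2-Ab1 -5453, which also carries the pair, scored 0.57, 0.52 and 0.53 in WT and 0.97, 0.89 and 0.25 in KO at 0 h, then 1.74 and 0.66 in WT and 1.04, 0.20 and 0.13 in KO at 1 h, and did not pass the test.

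H2-Eb1 -932 differed by 0.60 (0.47 in WT, 0.72 in KO) without overlap. In the H2-DMa window 3 elements rose: H2-DMa -1632 by 1.06 and H2-DMa -4185 by 0.62, both at Brd2 starts, and H2-DMa +941 by 0.94, all with an adjusted p of 0.0286 by the exact permutation test. H2-DMa -4185 was singled out after its value was seen. H2-DMa +941 (chr17 34123773), in an H2-DMa intron 941 bp after the upstream start, scored 0.27, 0.43 and 0.36 in WT and 0.57, 0.33 and 0 in KO at 0 h. At 1 h the scores were 0.69 and 1.42 in WT and 0.90, 2.38 and 1.15 in KO. All 3 rest on how neighbouring summits were treated: when summits sharing an interval were collapsed to 1, the difference was -0.31 at H2-DMa -1632, -1.41 at H2-DMa -4185 and -2.08 at H2-DMa +941. With log2 depth as a covariate in limma their adjusted p was 0.217, 0.143 and 0.0623. Without the shallowest list the difference of H2-DMa -1632 in WT was 0.39, from 0.71 with it.

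The 2 elements that fell were H2-DMa +7542 and Cd74 +2061. H2-DMa +7542 is the promoter of H2-DMb2, a second gene for the DM beta chain. It scored 1.57, 1.92 and 1.59 in WT and 1.25, 1.89 and 1.83 in KO at 0 h, then 0 and 1.22 in WT and 1.12, 1.46 and 1.23 in KO at 1 h. The lists were apart in WT but overlapped in KO, and the 0 was in the shallowest list. It fell by 0.73 on the log2 rank scale (1.08 in WT and 0.39 in KO; adjusted p = 0.0466, exact permutation test). Without the shallowest list it fell by 0.43 (0.47 in WT), with an adjusted p of 0.132 by the exact permutation test. Cd74 +2061 scored 0.67, 0.75 and 1.01 in WT and 0.80, 0.17 and 0.40 in KO at 0 h, then 0.23 and 0.00 in WT and 0.25, 0 and 0.02 in KO at 1 h. The lists were apart in WT only, since KO 0 h replicate 2 lay below KO 1 h replicate 1, and the difference was -0.53 (adjusted p = 0.0466, exact permutation test). With log2 depth as a covariate in limma it was -0.39 (adjusted p = 0.18).

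**Figure D4:**
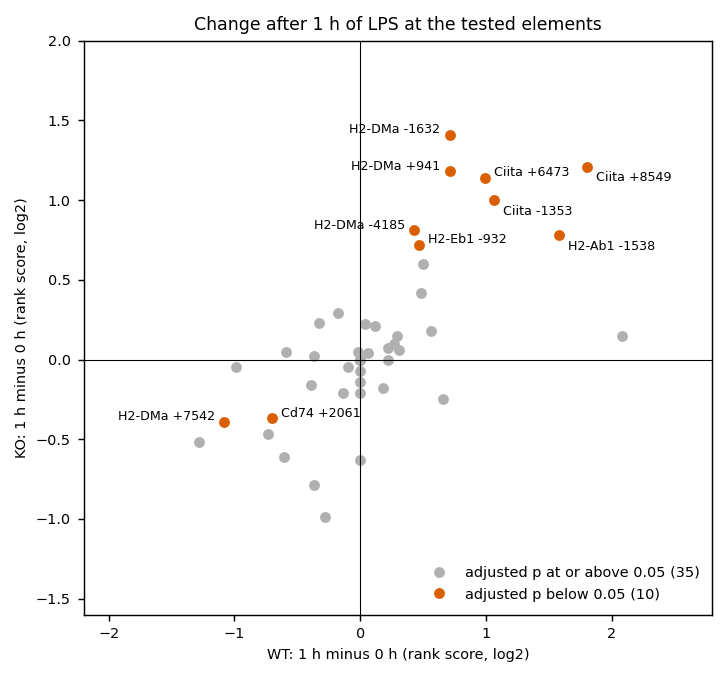
Difference in mean rank score between 1 h and 0 h of LPS (log2) in WT (horizontal axis) and KO (vertical axis) for the 45 tested elements, with the 10 that passed the adjusted test in orange and named. All 10 have the same sign in both genotypes.

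The second comparison, 18 h against 0 h, asked what remained changed late. No member element passed the adjusted exact permutation test in either direction, against 5.19% of all elements higher and 8.55% lower, and none had lists apart in both genotypes, against 13.7% of all. Of the 45, 6 had an unadjusted p under 0.05 (13.3%, against 29% of all). By limma 3 passed (6.67%, against 22.4%), or 2 with depth as a covariate (4.44%, against 21.9%). The nearest to the threshold were the H2-DMb2 promoter, with a difference of -1.01 (-1.07 in WT, -0.95 in KO), and H2-DMa +1954, with -0.40 (-0.40 in WT, -0.39 in KO), both with p = 0.01 and adjusted p = 0.0605 by the exact permutation test. Ciita -1353 scored 0.34, 0.64 and 0.02 in WT and 0.16, 0 and 0.26 in KO at 18 h, against 0 in every list at 0 h. That difference was 0.23 (p = 0.02, adjusted p = 0.0818, exact permutation test).

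The third comparison, 18 h against 1 h, showed 4 of the 45 elements lower (8.89%, against 8.01% of all) and none higher (against 4.45%). The lists were apart in both genotypes at 5 (11.1%, against 13.9%). The 4 were Ciita +6473, H2-Eb1 -932, H2-DMa -1632 and H2-DMa +941, all of which had been higher at 1 h. The first 2 entered this test only through the 1 h lists, as did 21.7% of all elements called lower, and are given as a description. Ciita +6473 scored 0 in the 3 WT lists at 18 h and 0, 0 and 0.26 in KO. Its difference was -1.02 (-0.99 in WT, -1.05 in KO), while H2-Eb1 -932 differed by -0.51. H2-DMa -1632 and +941 differed by -1.41 and -1.20 (adjusted p = 0.0401 for both, exact permutation test). With collapsed intervals these differences were -0.56 and -0.28 and neither passed, and with the 10000 best peaks that of +941 was -0.17 (adjusted p = 0.402, exact permutation test). When any 1 list was left out, no element of the genome passed the adjusted exact permutation test, the 4 included, whereas by limma +941 passed without each list and -1632 without each except the shallowest.

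The other Ciita elements were lower at 18 h without passing. Ciita -1353 was apart in both genotypes with a difference of -0.80 (adjusted p = 0.0661, exact permutation test). Ciita +8549 was 0 in the 3 WT lists and 0.97, 0.09 and 0.52 in KO at 18 h, where KO replicate 1 lay above KO 1 h replicate 3. Its difference was -1.24, being -1.80 in WT and -0.69 in KO (adjusted p = 0.0661, exact permutation test). H2-Ab1 -1538 scored between 0.51 and 0.71 in WT and between 0.26 and 0.78 in KO at 18 h, a difference of -0.91 from 1 h (adjusted p = 0.0897, exact permutation test). In WT these lists lay above those at 0 h, and the difference between 18 h and 0 h was 0.27 (p = 0.05, adjusted p = 0.157, exact permutation test). Of the 45 elements 15 had an unadjusted p under 0.05 (33.3%, against 27.7% of all), and by limma 14 passed in this comparison (31.1%, against 27%), or 8 with depth as a covariate (17.8%, against 18.5%). The comparisons of 1 h with 0 h and of 18 h with 1 h share the 1 h lists, so a rise in one and a fall in the other are not independent.

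The fourth comparison asked whether loss of Nur77 altered these elements, over all 17 lists with LPS time as stratum. Depth differed between genotypes, at 18 h without overlap (4.62 to 8.38 reads per kb in WT, 1.1 to 1.76 in KO). The exact permutation test does not adjust for depth. With log2 depth as a covariate in limma no member element passed (against 0.278% of all). No element of the 45 and none of all 38455 (0%) passed the adjusted exact permutation test, whose smallest possible p here is 0.00025. An unadjusted p under 0.05 was found at 2 of the 45 (4.44%, against 7% of all), and none had lists apart at every time, against 0.268% of all. Both stand at promoters of neighbouring genes. Clec16a, which encodes a regulator of autophagy, lies 55482 bp after a Ciita start, and its promoter was higher in KO by 0.72 (p = 0.0245, adjusted p = 0.566, exact permutation test). The difference was 0.16 at 0 h, 0.63 at 1 h and 1.37 at 18 h, and the last rests on the narrow-peak list KO 18 h replicate 1, with a score of 6.00 against 2.01 and 2.14 in the other two lists. H2-DMa -1110, at Brd2, was higher in KO by 1.03 (p = 0.0295, adjusted p = 0.605, exact permutation test). The difference was 2.06 at 0 h, where all WT lists were at 0, against 0.13 at 1 h and 0.90 at 18 h. In those WT lists the neighbouring element H2-DMa -1632, also at Brd2, averaged 3.83 ± 0.08 (SD, n = 3). A score of 0 at -1110 thus does not show closed chromatin at this site. Whether summits there were assigned to the neighbour was not tested. Over the members the median difference was 0.05, against -0.01 over all elements.

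The response to LPS was also compared between genotypes. No element of the 45 passed the adjusted exact permutation test at 1 h or at 18 h, nor did any of all elements (0%). At 1 h, 1 of the 45 had an unadjusted p under 0.05 (2.22%, against 3.28% of all), and at 18 h none had (against 3.21%). At 1 h this was H2-Ab1 -23242 in an intron of H2-Ob. By limma no member element passed in these comparisons between genotypes (against 0.567% of all for KO against WT, 0.296% for the response at 1 h and 0.0598% at 18 h), but 3 passed for KO against WT (6.67%, against 4.33% of all) and 4 for the 1 h response (8.89%, against 4.68%) when WT 1 h replicate 3 was left out, which leaves that group with the shallowest list alone. The rise at Ciita was 1.80 in WT and 1.21 in KO at +8549, 0.99 and 1.14 at +6473, and 1.06 and 1.00 at -1353. At each of the 3 elements the 1 h lists of the genotypes overlapped in score.

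The class II motif pair was searched for by its letters. An X1 core followed by a Y box 28 to 38 bases on, on either strand, was present in the central 201 bp of 452 of 37460 tested elements (1.21%) and of 7 of 40 member elements (17.5%). Both counts leave out chromosome 18, whose sequences were not used here, and with it the elements of Cd74. These were H2-DMa -91, H2-DMb1 +9, H2-Ab1 -24, H2-Eb1 -57 and H2-Ab1 -5453 in the orientation of their genes, and H2-Ab1 -1538 and Ciita -19690 in the opposite one. Their accessibility was unequal: H2-DMa -91 had a median score of 2.95, H2-Ab1 -1538 of 0.60, H2-Eb1 -57 of 0.05 and H2-Ab1 -24 of 0. Elements with the pair thus stood both high and at 0. A match describes letters, not binding.

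In the RefSeq promoter windows (250 bases before to 50 after a start, GRCm38) the pair occurred in 619 of 32851 (1.88%). Of the 4 member genes with a sequence there, H2-DMb1 and H2-Eb1 had it. The promoters of B2m, H2-D1 and H2-K1 had it, 3 of 8 class I genes with a sequence, and so did H2-Eb2, 1 of 22 pathway genes. H2-Aa held a CRE, found in 1.79% of all promoters, and a Y box, found in 37.4%, a combination present in 0.642%.

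Other motifs were searched on both strands in the same 201 bp windows. NF-kB matched 3 of the 40 member elements against 5.09% of all: Ciita +8549, H2-Ab1 -1538 and Ciita -19690, the first 2 of which rose at 1 h. AP-1 (TGANTCA) matched 5 of 40 against 18.2%, ISRE (GAAANNGAA) 1 against 7.36%, GAS (TTCNNNGAA) 2 against 5.44%, C/EBP (TTNCNNAA) 13 against 34%, the E box (CACGTG) 2 against 5.74% and the Y box, also part of the pair, 12 against 23%. PU.1 (GAGGAAGT) matched none against 7.02%, and the CRE none against 1.17%. NBRE (AAAGGTCA), the site bound by Nur77 as a monomer, matched none of the 40, against 1.01% of all elements. In the wider RefSeq promoters it occurred in 1.51% and among the members once, in H2-Eb1 on the minus strand with its first base at -238. Neither Ciita -1353 nor Ciita +6473 held an AP-1 or NF-kB match.

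The other genes of the pathway were taken from a list of 26, of which 25 had a promoter element, 23 were tested and 18 were present in all 17 lists. Their median score was 2.44. After 1 h of LPS 2 of the 23 were higher and 4 lower, against 9.52% and 11.9% of all tested elements. The 2 that were higher were Creb1, whose product binds the X2 box, by 1.67 (adjusted p = 0.0286), and Jak2, a kinase of the interferon-gamma receptor, by 0.96 (adjusted p = 0.0286). The 4 that were lower were H2-DMb2 (-0.73), which is the element H2-DMa +7542 counted above and did not pass without the shallowest list, the lysosomal protease gene Lgmn (-0.92) and the RFX subunit gene Rfxap (-0.78), each with an adjusted p of 0.0466, and Usf1 (-0.93, adjusted p = 0.0286), whose product binds E boxes. The median difference over the list was -0.11. All these p-values are from the exact permutation test over 38455 elements.

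In WT, Creb1 averaged 2.78 ± 0.28 (SD, n = 3) without LPS, 3.92 ± 0.30 (SD, n = 2) after 1 h and 2.23 ± 0.23 (SD, n = 3) after 18 h. In KO it averaged 2.35 ± 0.46, 4.55 ± 1.10 and 2.31 ± 0.24 (n = 3 each). Between 1 h and 18 h Creb1 differed by -1.96 and Prdm1, which encodes a repressor of Ciita, by -0.95 (adjusted p = 0.0401 for both). At 18 h against 0 h, Ifngr2, a chain of the interferon-gamma receptor, was higher by 0.90 (adjusted p = 0.0364). H2-Oa, encoding the alpha chain of the DM inhibitor H2-DO, entered the tests only through the 18 h lists. It averaged 0.67 ± 0.06 in WT and 0.44 ± 0.46 in KO at 18 h (n = 3 each) and was 0 in all lists at 0 h and 1 h. No pathway gene passed the test between KO and WT. H2-Ob and H2-Eb2 had peaks in 8 and 4 lists and were kept in none, and Ifi30 had no start in the annotation used.

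Genes of the class I pathway were compared as a list of 10, all with elements and 8 present in all 17 lists. Their median score was 4.03. At 1 h 3 of the 10 were higher, against 9.52% of all tested elements. H2-K1 and H2-D1, the classical class I heavy chains, were higher by 1.42 (adjusted p = 0.0466) and 2.76 (adjusted p = 0.0286), and Psmb10, an immunoproteasome subunit gene, by 1.05 (adjusted p = 0.0286). At 18 h against 0 h H2-K1 was higher by 2.39 and Psmb8 by 1.22 (adjusted p = 0.0364). Nlrc5, the class I counterpart of Ciita, had a median score of 0.07. Tap1 and Psmb9 share 1 element. At 18 h against 1 h Psmb8 was higher by 1.63 (adjusted p = 0.0401), and none of the 10 passed the test between KO and WT.

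Markers of the labelled cell type were accessible. All 6 macrophage genes (Csf1r, Adgre1, Itgam, Cd68, Mertk, Spi1) had a promoter element in all 17 lists, with a median score of 1.78. Adgre1 was higher at 1 h by 0.74 (adjusted p = 0.0466), where Itgam (-0.69) and Mertk (-0.91) were lower (adjusted p = 0.0286), and Csf1r (-0.60) and Mertk (-0.99) were lower at 18 h than at 0 h (adjusted p = 0.0364). Spi1 was higher at 18 h than at 1 h by 1.41 (adjusted p = 0.0401, exact permutation test). Among cells that express class II constitutively, the B cell genes Cd79a and Cd79b had no promoter element, and Pax5 and Ebf1 were kept in no list. Ms4a1 had a peak in 16 lists and was higher at 18 h than at 0 h by 0.73 (adjusted p = 0.0364). Dendritic cell genes had elements at 3 of 6, with Zbtb46 in 16, Batf3 in 13 and Flt3 in 7 lists, and Xcr1, Siglech and Ccr7 in none. Of 6 T cell genes only Cd3d had one, in 17 lists, lower at 18 h by 0.78 (adjusted p = 0.0364). No dendritic cell gene passed a test, and the part of other cells in the results was not tested.

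Promoters outside the windows whose scores most resembled those of a member were listed by Pearson correlation over the 17 lists among 13399 promoters, as a description, since lists differ in depth. For H2-DMa -91 they were Pdk2 (r = 0.832), Vgf (0.813) and Cox19 (0.772). For H2-DMb1 +9 they were the shared promoter of Dcun1d3 and Lyrm1 (0.9), Sphk2 (0.844) and Rbm5 (0.832). For H2-Eb1 -932, kept in 6 lists, they were the shared promoter of Srsf7 and Ttc39d (0.97), Clic4 (0.932) and Rev3l (0.91). The promoters like H2-Eb1 -57 led with that of Gm10645 and Tbc1d9 (0.86), those like H2-Ab1 -24 with Pcbd2 (0.947) and those like Cd74 -98 with Washc1 (0.916). The last 2 members were kept in 4 and 3 lists, so these values rest on few lists. For the H2-DMa elements at -345 and +941 the leading promoters were that of Mpv17l and Pdxdc1 (0.942) and Aff1 (0.954).

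Some distal elements were kept in nearly all lists. H2-DMa -20998, an intergenic element (chr17 34101834), was kept in all 17 lists with a median score of 2.67. It scored between 2.14 and 3.71 in every list except the narrow-peak list KO 18 h replicate 1, at 0.38. H2-Aa -8410 (chr17 34296233), between H2-Aa and H2-Eb1, was kept in 16 lists with a median score of 0.85, more than the promoter of either gene. It scored 0.85, 0.73 and 1.07 in WT and 0.89, 0.63 and 1.34 in KO at 0 h, 0 and 0.59 in WT and 1.15, 0.96 and 0.90 in KO at 1 h, and 0.71, 0.70 and 0.75 in WT and 2.09, 0.09 and 1.43 in KO at 18 h. It passed no test, and the only list without a peak was the shallowest. H2-DMb1 +6075, intronic, was kept in the 3 WT lists at 18 h alone, with scores of 0.24, 0.22 and 0.08, where its reads were 58, 35 and 23. The best ranks near Ciita belonged to the promoters of Dexi (median 2.89) and Clec16a (median 2.10), and near H2-DMa to H2-DMa -3527, at Brd2, with a median score of 4.38.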

How the data were processed

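ATAC-seq was performed on BMDMs of 6 groups, giving 17 peak lists, 1 per sample. Per the study's methods and the submitters' processing notes, the authors trimmed reads with cutadapt 2.6, mapped them to mm10 in the snakeATAC pipeline, removed mitochondrial and duplicate reads, called peaks in each sample alone at a q-value threshold, and tested differences with DiffBind 3.0.15. The version of the peak caller is not given in the sources used here. Each deposited list holds a score (10 times the −log10 q-value, as an integer), a fold enrichment ratio at the summit, and the −log10 p-value and −log10 q-value. These lists hold peaks only, so an element without a peak has no value and the read counts that DiffBind uses were not analysed here.

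Entries were ranked within each list by −log10 p-value. Summits within 500 bp of a centre formed elements, listed as the 501 bp around it, and those kept (rank within 26558) in at least 2 lists were tested, 38455 in all. Reads over a summit were recovered from the fold ratio, taken as reads plus 1 over background plus 1. Depth ran from 0.382 to 9.75 background reads per kb (25.5-fold), and the lowest number of reads in a called peak from 3 to 10 per list, so weak elements can be missed in shallow lists. Intervals on these reads were not given.

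Mean rank scores were compared by two-sided exact permutation tests, with LPS time permuted within genotype or genotype within LPS time, and adjusted by Benjamini-Hochberg. The script was tested on simulated data. Promoters were within 1 kb of a protein-coding start in GENCODE. Named were all member promoter elements, the 3 other elements per locus with the best median rank, up to 5 per comparison with the largest difference among those called or not overlapping, and the 3 most correlated promoters per member promoter. Members and lists were chosen with earlier results of these data known. A gene of the marker lists is not reported here. Alternatives were limma 3.58.1 in R 4.3.3 (with and without log2 depth), other list lengths, percentile ranks, collapsed intervals, pileup over background, other reach and filters, a replicate block and leaving out each list. Python 3.11.15, numpy 2.4.6, pandas 2.3.3, scipy 1.17.1, pysam 0.24.0 and matplotlib 3.10.9 were used.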

Additional observations from a re-analysis of the deposited data

Results flagged for a closer look

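The element H2-Ab1 -23242 (chr17 34239967), in an intron of H2-Ob, differed in its response to 1 h of LPS between genotypes by an unadjusted test. It scored 0.27, 0.36 and 0.37 in WT at 0 h and 0 in both WT lists at 1 h. In KO it scored 0 in the 3 lists at 0 h, and 0.15, 0 and 0.54 at 1 h. All 3 KO lists at 0 h and 1 WT list at 1 h had a peak there that ranked below 26558. These scores of 0 thus follow from the cut in rank and not from a missing peak. The change was -0.33 in WT and 0.23 in KO, and the difference between them was 0.56 (p = 0.02, adjusted p = 0.936, exact permutation test). It did not pass the adjustment over all elements, and 3.28% of all elements had an unadjusted p under 0.05.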

How the results depend on the processing

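In the comparison of 1 h with 0 h, 10 member elements were called (22.2%, against 21.4% of all tested). The count was 8 with a 250 bp reach (18.6% against 21.4%), 11 by limma (24.4% against 27.4%) and 7 by limma with depth (15.6% against 16.1%). It fell to 1 with the 10000 best peaks (6.25% against 14.8%), to 5 with collapsed intervals (7.94% against 15.4%), and to 0 with ranks as a share of the list or with no filter, where no element of the genome was called either. Collapsed intervals turned the 1 h difference to -0.31 at H2-DMa -1632, -1.41 at H2-DMa -4185 and -2.08 at H2-DMa +941. For 18 h against 0 h the count of 0 (against 13.7%) became 1 with collapsed intervals (1.59% against 11.6%), 7 with pileup over background (17.9% against 25.5%), 3 by limma and 2 by limma with depth. For 18 h against 1 h the count of 4 became 1 with the 10000 best peaks (6.25% against 10.5%), 0 with the share of the list, collapsed intervals or no filter (0% of all elements in each), 11 with pileup (28.2% against 26.4%), 14 by limma and 8 with depth. The cause was not tested.

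Leaving out each list in turn gave 0 to 11 calls at 1 h, 0 to 2 at 18 h against 0 h (against 0% to 14.5% of all elements) and 0 to 0 at 18 h against 1 h (0% of all). At 1 h it gave 7 without KO 0 h replicate 3 (15.6% against 21.5%), 11 without KO 1 h replicate 2 (24.4% against 20.1%) and 0 without any other, where no element of the genome was called either. The cause was not tested. Added after seeing the data, the same with limma gave 10 to 13, 1 to 6 and 10 to 17 (against 22.3% to 26.8%, 18.2% to 25.7% and 22.7% to 32.5% of all), with 12 in the last comparison without WT 18 h replicate 2 or KO 18 h replicate 3. It gave 0 to 3 for KO against WT and 0 to 4 for the 1 h response, the 3 and 4 without WT 1 h replicate 3 (6.67% against 4.33% and 8.89% against 4.68%). Also added, limma without the shallowest and the narrow-peak list gave 14, 5 and 14 (31.1%, 11.1% and 31.1%, against 27.9%, 26.8% and 29.2%). All other settings gave 0 for KO against WT and for both responses.

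With a replicate block the counts were 0 for every comparison, and no element of the genome was called. The smallest p was 0.125 for 1 h against 0 h, 18 h against 1 h and the 1 h response, 0.0312 for 18 h against 0 h and its response, and 0.0156 for KO against WT. Scores of lists with the same number did not deviate together (median r -0.00171 over 35 pairs, 2 above 0.1). Over the 85 pairs with different numbers the median r was -0.00162, with 11 above 0.1. Lists of the same number may still share an animal or batch, since depth also varied within groups, and this was not tested.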
